A study of Mus musculus with 8 samples.

Results

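Transcripts of 10 genes that mark platelets and their parent cells, the megakaryocytes, were followed in RNA from mouse serum vesicles. The genes are Pf4, Ppbp, Tmsb4x, Itga2b, Itgb3, Gp9, Gp1bb, Tubb1, F13a1 and Clec1b. They were taken by symbol, and all 10 were found among the 31300 mouse genes of a table that lists 52016 mouse and dog genes. All mice were of the immunodeficient NCr nu/nu strain, which lacks a working thymus and therefore most mature T cells. Serum was pooled before sequencing, and its exosomes, the small membrane vesicles that cells release, were precipitated with ExoQuick. The 8 libraries form 4 groups of 2. Week 0 serum was pooled from all mice before any injection. The other groups were bled at necropsy in week 8, after 10 µl had been injected into the tibia: PBS alone, or 100000 cells of OSCA-32 or of OSCA-40. Each of these is 1 cell line of canine osteosarcoma, a bone cancer of dogs, so each tumour group shows 1 line. The labels do not say that the libraries of a group came from separate animals or pools, so a p-value here weighs only the difference among the libraries made, part or all of which may be technical.

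Platelets are fragments shed by megakaryocytes. They have no nucleus and carry mRNA inherited from the parent cell, and they release vesicles into blood when they are activated and when blood clots to give serum. Their best-known transcripts encode granule chemokines, actin-binding proteins, the fibrinogen receptor and the von Willebrand factor receptor. Some of these genes are also used by other cells: Tmsb4x is expressed broadly, and F13a1 is also made by macrophages.

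The deposited values are whole numbers whose sum is nearly the same in every library, between 977106 and 989183, so each is a share of its library and carries no depth. Dog genes held 14.7% to 17.4% of the total in the 4 tumour-free libraries, 43.3% and 44.7% with OSCA-32, then 68.4% and 70.7% with OSCA-40. The mouse total was 808068 to 833616 without tumour, 543884 and 557795 with OSCA-32, then 312048 and 289464 with OSCA-40. Over the 7655 mouse genes tested, the median log2 change of the deposited value against PBS was -0.55 for OSCA-32 and -1.51 for OSCA-40. Values are therefore given as deposited and also scaled, that is, divided by a factor that sets the bulk of mouse genes level. The factors were 1 to 1.06 without tumour, 0.688 and 0.707 with OSCA-32, then 0.339 and 0.326 with OSCA-40. A scaled change is thus a change relative to the other mouse transcripts, not in the amount of RNA. More platelet vesicles and more of a transcript per vesicle cannot be told apart in such data. Whether dog reads were assigned to mouse genes was not tested.

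The outcome for the 10 genes was uneven. Pf4, Tmsb4x and Ppbp rose with OSCA-40 relative to PBS, by 6.88-fold, 6.64-fold and 3.09-fold on the scaled values, and Tmsb4x also rose with OSCA-32. Itga2b did not pass in any comparison. The other 6 genes lay below the minimum for testing, which was 10 or more as deposited in no fewer than 2 libraries, and are given by their values. Ppbp reached that minimum only through the OSCA-32 libraries, where its deposited value was highest, so its place among the tested genes is not independent of its level there.

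**Figure D1:**
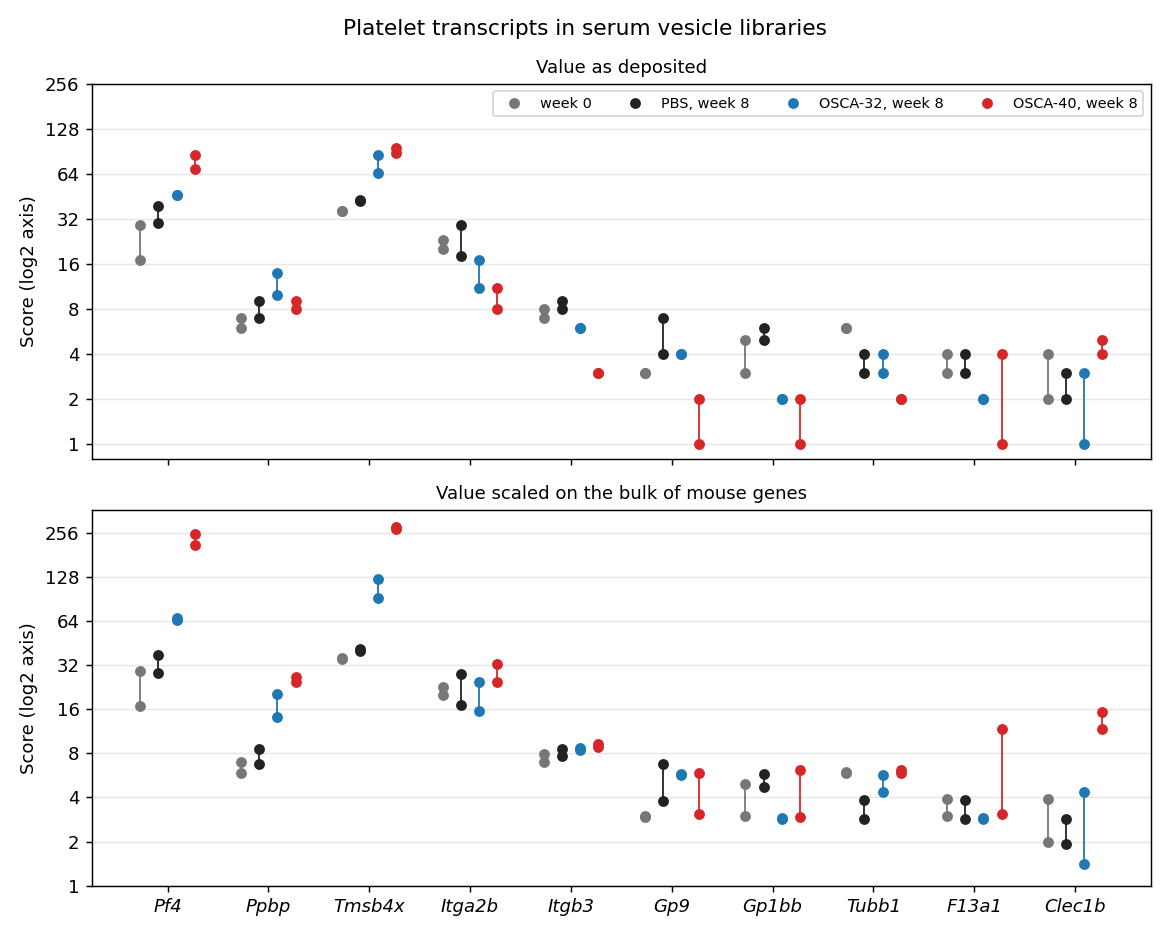
Deposited and scaled value of each of the 10 platelet genes in each of the 8 libraries, on log2 axes, grouped as week 0, PBS, OSCA-32 and OSCA-40. As deposited, Pf4 and Tmsb4x stand at 17 to 43 without tumour and at 69 to 95 with OSCA-40, while Itga2b stands at 18 to 29 without tumour and at 11 and 8 with OSCA-40.

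The first pair of genes encodes chemokines stored in platelet granules. Pf4 encodes platelet factor 4 (CXCL4), which is released on activation and binds heparin. The gene (ENSMUSG00000029373) lies on the plus strand of chromosome 5 at 90772435 to 90773383 (GRCm38). Its deposited value was 29 and 17 at week 0, 39 and 30 with PBS, 46 and 46 with OSCA-32, then 85 and 69 with OSCA-40. Every tumour library lay above every tumour-free library, and the OSCA-40 pair lay above the OSCA-32 pair, with no overlap between groups. Scaled, the means were 22.9 ± 8.70 at week 0, 33.0 ± 6.41 with PBS, 66.0 ± 1.24 with OSCA-32 and 231 ± 27.5 with OSCA-40 (SD, n = 2 each).

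Against PBS, the scaled log2 level of Pf4 was higher by 2.78 ± 0.26 with OSCA-40 (SE; 95% interval 2.18 to 3.39; limma adjusted p = 0.0010). This was rank 22 among the 7655 tested mouse genes. With OSCA-32 the difference of 0.99 ± 0.26 (SE) did not pass (adjusted p = 0.184, interval 0.39 to 1.60). The difference between the lines, 1.79 ± 0.26 higher with OSCA-40, passed (adjusted p = 0.0181). That call between the lines was lost without either OSCA-32 library or without OSCA-40 replicate 1, where the difference was 1.67 to 1.81 and the adjusted p 0.0662 to 0.0983. It was also lost without the variance trend (adjusted p = 0.0629). As deposited, with no scaling for the mouse share, the log2 difference of Pf4 from PBS was 1.14 for OSCA-40 and 0.42 for OSCA-32. PBS against week 0 gave 0.55 ± 0.26 (SE; interval -0.06 to 1.15), which did not pass.

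Ppbp encodes pro-platelet basic protein, the precursor of CXCL7, a chemokine that attracts neutrophils. The gene (ENSMUSG00000029372) lies beside Pf4 on chromosome 5, at 90768518 to 90770063 on the plus strand. Its deposited value was 7 and 6 at week 0, 7 and 9 with PBS, 14 and 10 with OSCA-32, then 9 and 8 with OSCA-40. As deposited, the OSCA-32 pair lay above all other libraries, and the OSCA-40 pair overlapped the PBS pair. The rise of Ppbp with OSCA-40 is therefore relative to the other mouse transcripts, whose deposited values were lower. Scaled, the means were 6.45 ± 0.781, 7.63 ± 1.27, 17.2 ± 4.38 and 25.6 ± 1.40 in the same order of groups (SD, n = 2 each).

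On the scaled log2 values Ppbp was 1.63 ± 0.28 higher with OSCA-40 than with PBS (SE; interval 0.98 to 2.28; limma adjusted p = 0.0136). With the library totals alone, the difference was 0.085 and did not pass (adjusted p = 0.765). With OSCA-32 it was 1.07 ± 0.28 (SE; interval 0.42 to 1.72; adjusted p = 0.184). The lines differed by 0.56 ± 0.28 (SE; interval -0.09 to 1.21; adjusted p = 0.376), which did not pass. The call against PBS was also lost without either PBS library or without OSCA-40 replicate 1, where the difference ranged from 1.48 to 1.77 over the libraries left out.

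Other chemokine genes lie close to Pf4 on chromosome 5, and 5 of them within 150 kb were taken by position for their deposited values. Cxcl5 was listed at 29, 31, 43, 31, 23, 27, 16 and 17 over week 0, PBS, OSCA-32 and OSCA-40 in turn. As deposited its tumour libraries were the lowest of the 8, but scaled it stood at 41.3 and 29.4 with PBS and at 47.2 and 52.2 with OSCA-40, so the direction turned with the scaling. Cxcl15 stood at 22 to 27 outside OSCA-40 and at 12 and 10 with it as deposited, and scaled at 25.0 and 21.8 with PBS and 35.4 and 30.7 with OSCA-40. For Pf4 both scales gave the same direction. Cxcl1, Cxcl2 and Cxcl3 stood at 8 or less in every library as deposited.

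Tmsb4x encodes thymosin beta 4, which holds actin monomers in reserve and is among the most abundant mRNAs of platelets. The gene (ENSMUSG00000049775) lies on the minus strand of the X chromosome at 167207093 to 167209315. Its deposited value was 36 and 36 at week 0, 43 and 42 with PBS, 85 and 65 with OSCA-32, then 95 and 88 with OSCA-40. Every tumour library lay above every tumour-free one, and both OSCA-40 libraries lay above both OSCA-32 libraries. Scaled, the means were 35.7 ± 0.446, 40.6 ± 1.09, 108 ± 22.3 and 275 ± 7.07 in the same order (SD, n = 2 each).

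Tmsb4x passed in 3 comparisons. Its scaled log2 level was 1.37 ± 0.14 higher with OSCA-32 than with PBS (SE; interval 1.03 to 1.71; limma adjusted p = 0.00627) and 2.73 ± 0.14 higher with OSCA-40 (interval 2.39 to 3.07; adjusted p = 7.23e-05). It was 1.36 ± 0.14 higher with OSCA-40 than with OSCA-32 (SE; interval 1.02 to 1.70; adjusted p = 0.00507). The last of these was lost with library totals alone (0.30, adjusted p = 0.102). The OSCA-32 call was lost without PBS replicate 1 (1.39, adjusted p = 0.0563) or PBS replicate 2 (1.34, adjusted p = 0.0720). PBS differed from week 0 by 0.18 ± 0.14 (SE), which did not pass. The thymosin paralogue Tmsb10, named here after its values were seen, stood at 6 to 14 and differed by 0.88 with OSCA-40 (adjusted p = 0.170).

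Set against all genes, the 4 tested platelet genes gave 1 higher call of 4 with OSCA-32, where 0.379% of the tested mouse genes were called higher. They gave 3 of 4 with OSCA-40, where 3.03% were called higher, and 2 of 4 (Pf4 and Tmsb4x) between the lines, where 0.797% were. None of the 4 was called lower, against 0.17%, 2.33% and 0.967% of tested mouse genes. PBS against week 0 gave 0 of 4 with limma, and also 0 of 4 at an unadjusted p under 0.05, beside 0.0653% of genes called higher and 0.0784% lower. Their median scaled log2 difference was 1.03 with OSCA-32 and 2.18 with OSCA-40, beside 0.00 and -0.03 over all tested mouse genes. The 4 genes are those of the 10 that reached the minimum, so these counts and medians do not speak for all 10. The 3 of 4 with OSCA-40 include Ppbp, which reached the minimum only through OSCA-32. With only the OSCA-40 and PBS libraries, Ppbp was not tested. That fit called 2 of 3 members higher, beside 166 of 5801 mouse genes. Both tumour comparisons use the same PBS libraries, and their results are not independent of each other.

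The scaling decided the balance of calls over all genes. With OSCA-40 there were 232 mouse genes higher and 178 lower. The same comparison gave 15 and 6509 with library totals alone, and 148 and 307 with mouse totals set equal. Between the lines there were 61 higher and 74 lower, against 14 and 4495 with library totals alone and 28 and 134 with mouse totals set equal. With OSCA-32 there were 29 and 13, against 22 and 1207 with library totals alone. Pf4 and Tmsb4x were among the genes called higher with OSCA-40 under each of these scalings.

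**Figure D2:**
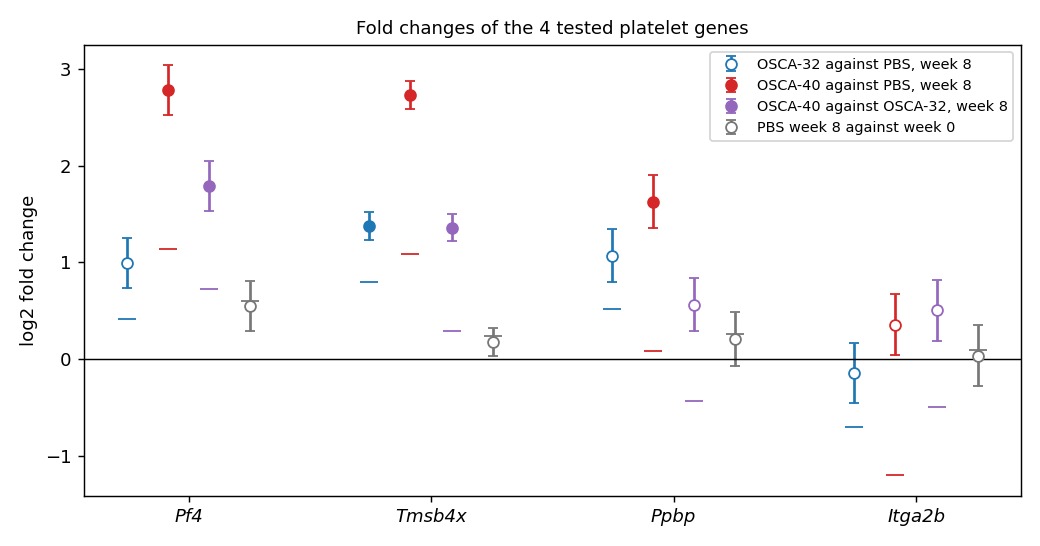
Scaled log2 fold change of the 4 tested platelet genes in the 4 comparisons, with standard errors as bars. Filled points passed at a limma adjusted p of 0.05 and open points did not. The short horizontal marks give the difference as deposited. With OSCA-40 the Pf4 and Tmsb4x marks (1.14 and 1.09) lie above 0 on both scales, whereas the Itga2b mark lies at -1.20.

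The bases before the start sites of the 4 tested genes are shown because 3 of them rose together in the OSCA-40 comparison and Itga2b did not pass. Each line holds the 250 bases before the start annotated by RefSeq on build GRCm38.p6, read 5′ to 3′ on the gene's strand. For Tmsb4x and Itga2b, that start lies inside the gene span that GENCODE gives. On the minus strand those spans begin at 167209315 and 102470122, so part of the Tmsb4x window and most of the Itga2b window lie within the gene. Capitals mark matches on either strand to AGATAA or TGATAA, which GATA factors can bind, or to AGGAAG, which ETS factors can bind. The windows are chr5:90772185-90772434 (plus strand) for Pf4, chr5:90768268-90768517 (plus) for Ppbp, chrX:167209219-167209468 (minus) for Tmsb4x and chr11:102469884-102470133 (minus) for Itga2b.
Pf4: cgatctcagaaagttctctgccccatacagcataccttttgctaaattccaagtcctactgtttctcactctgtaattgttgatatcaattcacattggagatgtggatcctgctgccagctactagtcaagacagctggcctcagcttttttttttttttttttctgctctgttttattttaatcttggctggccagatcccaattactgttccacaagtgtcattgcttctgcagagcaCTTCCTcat
Ppbp: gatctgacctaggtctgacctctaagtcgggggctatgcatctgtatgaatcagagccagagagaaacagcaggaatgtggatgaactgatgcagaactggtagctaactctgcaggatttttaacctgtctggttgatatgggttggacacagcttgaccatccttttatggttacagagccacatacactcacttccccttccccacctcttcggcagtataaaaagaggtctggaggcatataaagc
Tmsb4x: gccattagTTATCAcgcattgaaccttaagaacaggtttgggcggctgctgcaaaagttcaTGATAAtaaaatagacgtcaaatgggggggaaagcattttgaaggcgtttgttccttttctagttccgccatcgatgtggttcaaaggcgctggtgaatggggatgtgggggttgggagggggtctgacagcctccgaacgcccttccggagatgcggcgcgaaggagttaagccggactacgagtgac
Itga2b: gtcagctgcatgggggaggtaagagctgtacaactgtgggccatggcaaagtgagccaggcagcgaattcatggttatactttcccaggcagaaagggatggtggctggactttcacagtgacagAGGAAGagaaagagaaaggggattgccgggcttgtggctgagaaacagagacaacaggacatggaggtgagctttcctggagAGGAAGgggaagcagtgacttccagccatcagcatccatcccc

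The Pf4 window held AGGAAG on the reverse strand at -9 to -4, and AGATAA lay past the start at 37 to 42. Tmsb4x held TGATAA at -242 to -237 on the reverse strand and at -189 to -184 on the forward strand. Itga2b held AGGAAG at -125 to -120 and at -43 to -38, counted from its RefSeq start and within the GENCODE gene span. The Ppbp window held none of the 3 motifs. In the RefSeq table of 32851 promoters, 9.99% held AGATAA, 7.94% TGATAA and 29.5% AGGAAG within the 250 bases before the start, on either strand and counting overlapping matches. GC content was 41.2% for Pf4, 47.2% for Ppbp, 52% for Tmsb4x and 54% for Itga2b. The matches describe these letters only, and no motif was shared by the 3 genes that rose.

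Itga2b and Itgb3 encode the subunits alpha IIb and beta 3 of the fibrinogen receptor, the integrin that lets platelets aggregate. Itga2b (ENSMUSG00000034664, chromosome 11, 102453297 to 102470122, minus strand) is nearly restricted to the megakaryocyte lineage. Its deposited value was 20 and 23 at week 0, 29 and 18 with PBS, 17 and 11 with OSCA-32, then 11 and 8 with OSCA-40. All tumour libraries lay below all tumour-free ones as deposited, opposite to Pf4 and Tmsb4x. Scaled, the means were 21.3 ± 1.84, 22.5 ± 7.65, 20.1 ± 6.46 and 28.5 ± 5.57 (SD, n = 2 each), which overlap.

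The scaled log2 differences of Itga2b were -0.15 ± 0.31 with OSCA-32 (SE; interval -0.88 to 0.59; limma adjusted p = 0.933) and 0.36 ± 0.31 with OSCA-40 (interval -0.38 to 1.09; adjusted p = 0.576). Between the lines the difference was 0.50 ± 0.31, and between PBS and week 0 it was 0.04 ± 0.31. None passed, though the intervals do not exclude changes of the order of 1 on the log2 scale with OSCA-40. With library totals alone Itga2b was lower with OSCA-40 by a passing margin (-1.20, adjusted p = 0.00835), so its direction depends on the scaling.

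Itgb3 (ENSMUSG00000020689, chromosome 11, 104608000 to 104670476, plus strand) is used by platelets, osteoclasts and endothelial cells. It was listed at 7 and 8, 8 and 9, 6 and 6, and 3 and 3 over week 0, PBS, OSCA-32 and OSCA-40. The tumour libraries were below the tumour-free ones as deposited, as for Itga2b. Its scaled means were 7.43, 8.11, 8.60 and 9.03, a narrow range. The ratio of Itga2b to Itgb3 within a library averaged 2.87 ± 0.0126, 2.81 ± 1.15, 2.33 ± 0.707 and 3.17 ± 0.707 (SD, n = 2 each), so the 2 subunits kept a like proportion within the spread.

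The annotated transcripts of Itga2b include 1 of 10 models that shares sequence with other genes. In that model, Itga2b-209, a stretch of 68 bases at chr11:102456625-102456692 (minus strand, GRCm38) lies outside the exons of Itga2b-201. The most matched base of the stretch lay in matches to transcripts of 114 other genes, at 90% identity or more over at least 60 bases. A match could run past the stretch or cover only part of it. The stretch is shown for that likeness. Whether reads from it could be placed on Itga2b alone was not tested.
Itga2b-209: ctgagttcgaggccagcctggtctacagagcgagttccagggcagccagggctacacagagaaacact

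The transcripts of Pf4, Ppbp, Tmsb4x, Gp9 and Tubb1 shared no such stretch with another gene. Gp1bb shared up to 1902 bases at 100% identity with the neighbouring gene Sept5 in both of its models, so its value is uncertain. Clec1b shared 185 bases with Clec9a in 1 of 4 models, and F13a1 up to 133 bases with 8 genes in 1 of 5 models. Itgb3 shared 62 bases with Hydin in both of its models.

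The remaining 5 genes stood at 7 or less in every library. Gp9 and Gp1bb encode subunits of the GPIb-IX-V complex, the receptor that catches von Willebrand factor on damaged vessels. Gp9 (chromosome 6, 87778072 to 87779768) was listed at 3 and 3, 7 and 4, 4 and 4, and 2 and 1 over week 0, PBS, OSCA-32 and OSCA-40. Gp1bb (chromosome 16, 18620317 to 18622403) was listed at 3 and 5, 6 and 5, 2 and 2, and 1 and 2. As deposited, both were lowest with OSCA-40 or level with the lowest. Scaled, Gp9 averaged 2.97, 5.26, 5.74 and 4.48 in that order of groups and Gp1bb 3.96, 5.25, 2.87 and 4.54. On both scales Gp1bb was below PBS without overlap with OSCA-32, and Gp9 overlapped PBS with both lines once scaled.

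Tubb1 encodes beta 1 tubulin, which forms the marginal microtubule ring of the platelet. It was listed at 6 and 6, 4 and 3, 3 and 4, and 2 and 2 in the same order. F13a1 encodes the A chain of factor XIII, which crosslinks fibrin. It was listed at 3 and 4, 4 and 3, 2 and 2, and 4 and 1. As deposited Tubb1 was highest before any injection. Scaled, it averaged 5.95 at week 0, 3.34 with PBS, 5.01 with OSCA-32 and 6.02 with OSCA-40, and both lines lay above PBS without overlap. Scaled F13a1 averaged 3.47, 3.34, 2.87 and 7.43 in that order, and its OSCA-40 libraries were far apart at 11.8 and 3.07.

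Clec1b encodes CLEC-2, the platelet receptor for podoplanin. It was the sole one of these 5 genes whose deposited value was higher with OSCA-40 than with PBS: 2 and 4 at week 0, 2 and 3 with PBS, 3 and 1 with OSCA-32, then 4 and 5 with OSCA-40. The OSCA-40 pair did not overlap the PBS pair, though it met the week 0 pair at 4. Scaled, Clec1b averaged 2.38 ± 0.651 with PBS and 13.6 ± 2.51 with OSCA-40 (SD, n = 2 each). In a fit without the minimum for testing, which was also scaled anew, its log2 difference of 1.98 ± 0.49 (SE) did not pass (limma adjusted p = 0.0851). None of the 6 low genes passed in that fit in any of the 4 comparisons; at an unadjusted p under 0.05 stood Clec1b with OSCA-40 against PBS and against OSCA-32, and Tubb1 in PBS against week 0.

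Counted over all 10 genes as deposited, 3 had both OSCA-32 libraries above both PBS libraries (Pf4, Ppbp and Tmsb4x) and 4 had both below. For OSCA-40, 3 had both above PBS (Pf4, Tmsb4x and Clec1b) and 5 had both below. Between the lines 3 were above with OSCA-40 and 4 below, and with PBS 3 were above week 0 and 1 below. Over all 31300 mouse genes listed, 2.12% were above and 40.4% below with OSCA-32, and 0.607% were above and 71.2% below with OSCA-40. Between the lines 1.14% were above and 47.4% below, and for PBS against week 0 it was 14.8% and 8.32%. Scaled, the tally was different. With OSCA-32, 4 of the 10 lay above PBS and 1 below, beside 16.1% and 19.2% of all listed mouse genes. With OSCA-40, 6 lay above PBS (Pf4, Tmsb4x, Ppbp, Clec1b, Tubb1 and Itgb3) and 0 below, beside 22.3% and 20.4%. Between the lines 8 lay above and 0 below, beside 22.5% and 15.2%. The 8 were Pf4, Tmsb4x, Ppbp and the untested Itgb3, Tubb1, Clec1b, F13a1 and Gp1bb, whose deposited values are small whole numbers. Itgb3, for example, separated by little, at 8.72 and 8.49 with OSCA-32 against 8.85 and 9.21 with OSCA-40. In the fit without the minimum, these untested genes differed by -0.09 (Itgb3) to 1.85 (Clec1b) on the log2 scale, and none passed. That fit was scaled anew over more genes. Its median difference between the lines over mouse genes was -0.18, beside -0.01 in the main fit, so its values are not on the scale of those just given. In PBS against week 0 the scaled tally was 2 and 1, beside 14.4% and 20.9%. Itgb3 and Tubb1 changed sides with the scaling in the OSCA-40 comparison. Among the 10 genes, Pf4 and Tmsb4x were those that lay above PBS as deposited in both tumour groups without overlap.

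The sum of the 10 deposited values was 116 and 112 at week 0, 149 and 126 with PBS, 182 and 151 with OSCA-32, then 216 and 187 with OSCA-40. The sum was higher in each tumour library than in each tumour-free one, and a growing share of it came from a pair of genes. Pf4 and Tmsb4x together made up 47.3% to 57.1% of the sum without tumour, 72.0% and 73.5% with OSCA-32, then 83.3% and 84.0% with OSCA-40. The 6 untested genes together summed to 24 to 31 without tumour and to 16 and 14 with OSCA-40 as deposited. Scaled, the same sums were 24 to 29.8 without tumour and 47.2 and 43.0 with OSCA-40, so their direction depends on the scaling.

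Ratios between members of the same library do not depend on the scaling. Pf4 over Itga2b was 1.45 and 0.739 at week 0, 1.34 and 1.67 with PBS, 2.71 and 4.18 with OSCA-32, then 7.73 and 8.63 with OSCA-40. The ratio was higher in each tumour library than in each tumour-free one, and higher with OSCA-40 than with OSCA-32. Tmsb4x over Itga2b averaged 1.91 ± 0.601 with PBS, 5.45 ± 0.643 with OSCA-32 and 9.82 ± 1.67 with OSCA-40 (SD, n = 2 each).

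Between the genes that rose, the proportions moved less. Pf4 over Tmsb4x averaged 0.811 ± 0.136 with PBS, 0.624 ± 0.118 with OSCA-32 and 0.839 ± 0.0782 with OSCA-40 (SD, n = 2 each). PBS and OSCA-40 overlapped, and both OSCA-32 libraries lay below both of those groups, within the range seen at week 0 (0.472 and 0.806). Pf4 over Ppbp averaged 4.45 ± 1.58, 3.94 ± 0.929 and 9.03 ± 0.579 in the same groups. Both OSCA-40 libraries exceeded all others in that ratio, so Pf4 and Ppbp, though adjacent on the chromosome, did not keep 1 proportion.

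**Figure D3:**
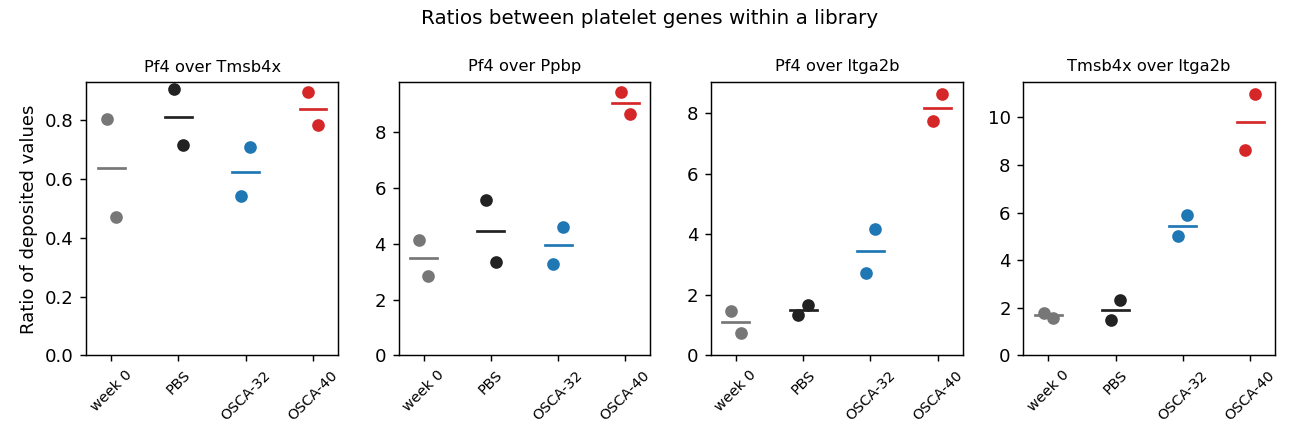
Ratios of deposited values between pairs of platelet genes within each library, on linear axes that start at 0, by group. Pf4 over Itga2b and Tmsb4x over Itga2b step up from tumour-free to OSCA-32 to OSCA-40 libraries, while Pf4 over Tmsb4x stays between 0.472 and 0.907.

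Over the 8 libraries, the scaled log2 levels of Pf4, Tmsb4x and Ppbp followed each other. Pearson's r was 0.973 for Pf4 with Tmsb4x, 0.977 for Ppbp with Tmsb4x and 0.936 for Ppbp with Pf4. Itga2b correlated with the 3 at 0.360 to 0.484. The 8 points share 4 groups and 1 scaling, so these are descriptions of how the groups line up. Among 6500 tested protein-coding genes, those most like Pf4 in this sense were Cpne8 (0.988), Ctla2a (0.988), Arntl2 (0.982), Tmem68 (0.979) and Fabp1 (0.978). Those most like Tmsb4x were Slc7a11 (0.991), Fth1 (0.989), B2m (0.987), Bmt2 (0.984) and Ctla2a (0.982). The likeness holds for scaled values. As deposited, Cpne8, Ctla2a, Arntl2, Tmem68 and Slc7a11 were lower with OSCA-40 than with PBS without overlap, opposite to Pf4 and Tmsb4x. Cpne8, for example, stood at 168 and 164 with PBS and at 90 and 86 with OSCA-40. Fabp1 and B2m were higher as deposited, and Fth1 and Bmt2 met or overlapped the PBS values.

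The standing of the 10 genes within a library gives a further view without scaling. Among the 21474 mouse protein-coding genes, Pf4 stood at percentile 93.2 and 86.6 at week 0, 94.9 and 93.0 with PBS, 97.1 and 97.0 with OSCA-32, then 99.2 and 99.1 with OSCA-40. Tmsb4x went from 94.4 to 95.4 without tumour to 98.4 and 97.8 with OSCA-32 and 99.3 in both OSCA-40 libraries. Ppbp stood at 59.3 to 70.1 without tumour, 89.2 and 82.7 with OSCA-32, then 91.7 and 91.0 with OSCA-40. Itga2b stayed between 84.7 and 93.4 and Itgb3 between 64.4 and 71.2. Clec1b stood at 15.5 and 28.7 with PBS and at 78.0 and 83.8 with OSCA-40, where a single unit of the deposited value spans many ranks.

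**Figure D4:**
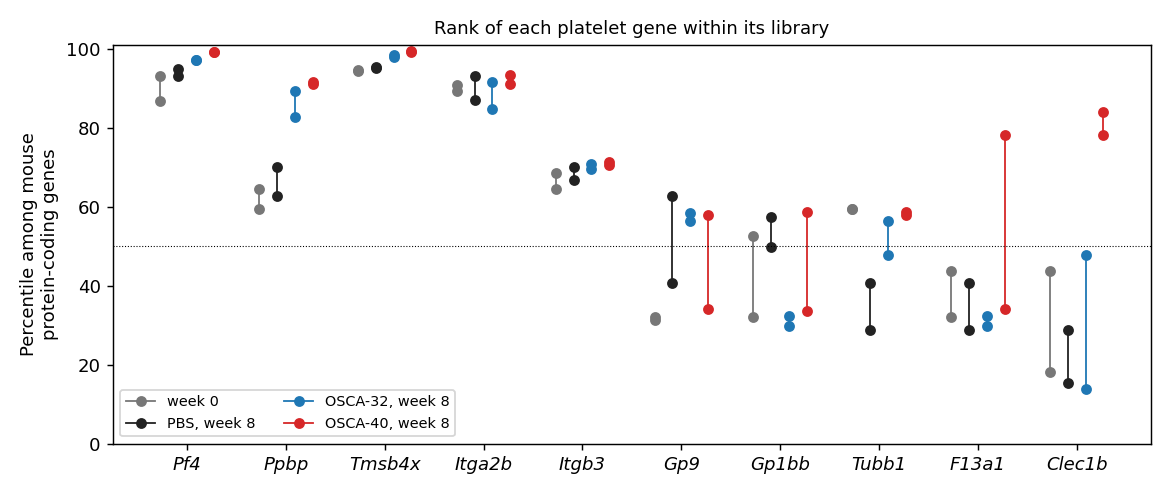
Percentile of each platelet gene among the 21474 mouse protein-coding genes of the same library, by group. Ppbp moves from 59.3 to 70.1 without tumour to 82.7 or more in the tumour libraries, and Itgb3 stays between 64.4 and 71.2.

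Genes that blood cells hardly use give a gauge of how low values behave. The 1385 olfactory and vomeronasal receptor genes, which serve smell, had a median deposited value of 3 in each tumour-free library, 2 with OSCA-32 and 1 with OSCA-40. At least 69.3% of them were listed at 1 or more in every library. Pf4 exceeded 98.9% to 99.9% of these receptors in every library, Tmsb4x 99.5% to 99.9% and Itga2b 98.5% to 99.5%. Ppbp exceeded 89.7% to 99.1%. Over the 8 libraries Gp9 exceeded 30.7% to 93.3%, Gp1bb 28.4% to 89.2%, Tubb1 44.5% to 90.7% and F13a1 30.7% to 97.2%. Clec1b exceeded 12.1% to 68.3% outside OSCA-40, and 97.2% and 98.5% in the OSCA-40 libraries.

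The wider platelet programme was described with 5 lists of 76 further genes, all of them listed and 35 tested. None of the 35 was called by limma in any of the 4 comparisons. At an unadjusted p under 0.05 stood 0 with OSCA-32, 4 with OSCA-40, 2 between the lines and 1 in PBS against week 0. The median scaled log2 difference over the 35 was 0.05 with OSCA-32 and 0.06 with OSCA-40, beside 0.00 and -0.03 over all tested mouse genes. As deposited, both OSCA-40 libraries lay below both PBS libraries for 65 of the 76 genes (85.5%), beside 71.2% of all listed mouse genes. Scaled, 15 lay below (19.7%) and 23 above (30.3%), beside 20.4% and 22.3%.

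Among 20 surface receptors, 5 were tested, and their median with OSCA-40 was -0.15. The highest without tumour were Itga6, a laminin receptor subunit, with a mean deposited value of 115, Cd84, an adhesion receptor of platelets and leukocytes, with 97.3, and P2ry1, an ADP receptor, with 12.5. Among 18 genes of granule cargo and release, 11 were tested (median 0.06), led by Unc13d (133.5), needed for granule release, Vwf (96.5) and Snap23 (43.3), a membrane fusion protein. Vwf, the ligand of the GPIb-IX-V complex, stood at 86, 104, 103, 93, 70, 76, 41 and 39 over the groups in turn. As deposited it was lower in the tumour libraries, as most mouse genes were, and its scaled difference with OSCA-40 was 0.36 (adjusted p = 0.131).

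Among 17 cytoskeletal genes, 10 were tested, with the highest list median with OSCA-40, 0.30. Parvb (40.3 without tumour), an integrin-linked adaptor, Tln1 (20), the integrin activator talin, and Bin2 (20) led by level. Actb, which encodes beta actin and is named here after its values were seen, was the 1 gene of the 76 with both OSCA-40 libraries above both PBS libraries as deposited: 1 and 2 with PBS against 10 and 7. It was too low elsewhere to be tested. Signalling and lipid enzymes had 6 of 12 tested (median -0.10), led by Tbxas1 (44.8), the thromboxane synthase, Dnm3 (41.5) and Alox12 (17.8). Megakaryocyte transcription factors had 3 of 9 tested (median -0.02), led by Gata1 (17), Gfi1b (10.8) and Runx1 (9, not tested). Nrgn was listed at 0 in all libraries.

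**Figure D5:**
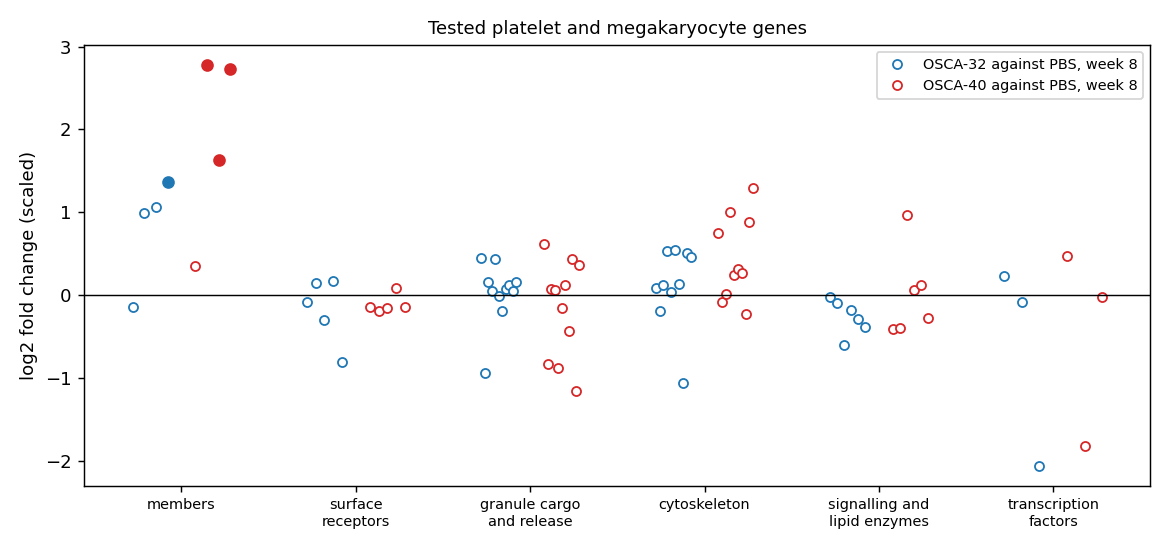
Scaled log2 fold change of the tested genes of each wider platelet list and of the 4 tested platelet genes, against PBS, for OSCA-32 and OSCA-40. Pf4, Tmsb4x and Ppbp lie at 1.63 to 2.78 with OSCA-40 and Itga2b at 0.36. Single genes of the wider lists lie between -1.81 and 1.30, and the list medians between -0.15 and 0.30.

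On the scaled values, markers of other cells moved in the same OSCA-40 comparison. Of 6 tested red cell genes, Hba-a2, an alpha globin gene, alone was called and rose by 1.72 on the scaled log2 values. The summed scaled level of the 11 listed erythroid genes was 470 to 502 at week 0, 324 to 349 with PBS, 408 to 424 with OSCA-32 and 773 to 875 with OSCA-40. As deposited, the sum was 337 to 368 with PBS and 262 to 285 with OSCA-40. Hba-a2 made up most of it, at 184 and 189 with PBS and at 194 and 196 with OSCA-40. Hba-a2 was also called lower in PBS than at week 0 (-0.77, adjusted p = 0.0173). Of 3 tested hepatocyte genes, Alb (albumin) and Trf (transferrin) rose by 1.75 and 0.78 on that scale. The scaled sum of all 8 listed was 53.8 to 73.0 with PBS and 147 to 178 with OSCA-40. As deposited, that sum was 56 to 77 with PBS and 50 to 58 with OSCA-40. Deposited Alb overlapped, at 7 and 13 with PBS and 11 and 11 with OSCA-40, while Trf was lower with OSCA-40 (21 and 22 against 13 and 11). Of 5 tested endothelial genes, Pecam1 alone was called and rose, by 1.30 scaled, and it is also a platelet surface protein. As deposited, Pecam1 was lower with OSCA-40, at 29 and 25 with PBS and 21 and 22 with OSCA-40. The list's median was -0.32, with Flt1 at -0.96, Tie1 at -0.48 and Kdr at -0.32, none of which passed. Scaled, the 8 listed endothelial genes summed to 98.0 to 108 at week 0, 79.6 to 87.5 with PBS and 109 to 114 with OSCA-40. As deposited they summed to 84 to 91 with PBS and to 37 with OSCA-40. Of 6 tested vesicle genes, Cd9, a tetraspanin also found on platelets, alone was called and fell by 1.20. The 12 listed vesicle genes summed to 263 to 295 with PBS and 166 to 168 with OSCA-40 on the scaled values. Cd9 made up most of that sum with PBS, at 208 and 192 of 277 to 307 as deposited. With OSCA-40 it stood at 29 and 26 of 54 to 57. The sum therefore does not describe the other vesicle genes.

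Between the lines, scaled Hba-a2 (1.31) and Pecam1 (0.84) were also higher with OSCA-40 and Cd9 was lower (-0.94). As deposited, Pecam1 was lower with OSCA-40 (21 and 22) than with OSCA-32 (23 and 27). No gene of these marker lists was called with OSCA-32. None of the tested genes of neutrophils (3), monocytes and macrophages (3), B and plasma cells (2), T and NK cells (1) or mast cells (1) was called in any comparison. At an unadjusted p under 0.05 stood 1 neutrophil gene with OSCA-40. The 10 neutrophil genes summed to 191 to 217 with PBS and 168 to 175 with OSCA-40 on the scaled values. No marker in these lists was at 0 in all libraries. The part of red cell, liver or endothelial RNA in the higher Pf4, Tmsb4x and Ppbp values was not tested.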

How the data were processed

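A SeraMir kit was used to extract serum vesicle RNA, which was made into libraries with a stranded SMARTer pico-input kit, per the labels' protocols. FastQC 0.11.5, Trimmomatic 0.33.0 and kallisto 0.43.0 are named in the submitters' processing notes, with GRCm38.p5 and CanFam3.1 as builds. For the index, the annotation release and the step that made values whole, details were not given in the sources used here. In the authors' deposited table the values are named counts, but they are treated as a score: whole numbers with nearly equal library totals that behave like TPM over both species, so the depth is unknown and no counting interval is given. Across 21474 protein-coding genes, Spearman's rho of value with transcript length was 0.189 to 0.227.

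Genes that reached 10 in no fewer than 2 libraries were tested (7655 mouse, 217 canine) on log2(scaled value + 1) with limma 3.58.1 (R 4.3.3), two-sided, with a variance trend and all 8 libraries in 1 fit of 4 group means (4 residual degrees of freedom). Fold changes of low genes are understated on this scale. Libraries were scaled by an unweighted trimmed mean of log ratios over tested mouse genes to the first week 0 library, trimming 30% of ratios and 5% of levels at each end. Adjusted p-values are Benjamini-Hochberg values over all tested genes within each of 4 comparisons, with a threshold of 0.05. The members and lists were chosen with earlier results of these data known, and the wider lists were written from textbook knowledge. Named genes are all 10 members, the 3 highest tumour-free genes and any called gene of each wider list, called marker genes in comparisons where a member passed, and the 5 genes most correlated with Pf4 or Tmsb4x. GENCODE mouse release 21 (GRCm38) gave symbols and coordinates and matched 31171 of 31300 mouse identifiers. Transcripts were compared with BLAST 2.17.0. The marker Ahsp was not matched.

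On simulated data of 7872 genes the procedure recovered, of 100 genes changed 2-fold and 100 changed 4-fold, 17 and 63 for OSCA-32 against PBS, 22 and 63 for OSCA-40 against PBS, 15 and 59 between the lines, and 27 and 66 for PBS against week 0. Of the unchanged genes, 5, 5, 4 and 4 were called in that order. The simulated libraries varied independently of each other, which the labels do not state for the real ones. Libraries with the same replicate number did not deviate together (correlations of deviations -0.059 to 0.0024), and the numbers were not used as pairs. Alternatives covered the scaling, filter, pseudocount, variance trend, groups in the fit, replicate block and leaving out each library.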

Additional observations from a re-analysis of the deposited data

Results flagged for a closer look

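The responses of 2 platelet genes to the lines differed by a test of the difference itself. Pf4 was 1.79 higher on the scaled log2 values with OSCA-40 than with OSCA-32 (limma adjusted p = 0.0181), and Tmsb4x was 1.36 higher (adjusted p = 0.00507). Both OSCA-40 libraries lay above both OSCA-32 libraries for each gene, as deposited and scaled. The Pf4 difference did not pass without the variance trend (adjusted p = 0.0629) and passed in 5 of 8 fits that left out 1 library, and the Tmsb4x difference was 0.30 with library totals alone (adjusted p = 0.102). The dog share of the library differed between the lines in the same direction, at 68.4% and 70.7% against 43.3% and 44.7%, and its part in these differences was not tested.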

How the results depend on the processing

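The higher levels of Pf4 and Tmsb4x with OSCA-40 than with PBS kept their direction and passed under every alternative run, with 2.58 to 2.98 for Pf4 and 2.70 to 2.76 for Tmsb4x on the log2 scale over the libraries left out in turn, and 1.14 and 1.09 with library totals alone. With library totals alone, Ppbp with OSCA-40 against PBS was 0.085 (no longer passing) and Itga2b reversed to -1.20. Between the lines that scaling left 1 gene called, Pf4, with Tmsb4x at 0.30, and reversed Ppbp (-0.44) and Itga2b (-0.50). Without the variance trend 1 gene, Tmsb4x, was called between the lines, and Pf4 (1.79) no longer passed (adjusted p = 0.0629). With only the groups compared, 0 were called with OSCA-32, and Tmsb4x was 1.37 (adjusted p = 0.0796). Without a filter, Itga2b in PBS against week 0 reversed to -0.018. The cause of these changes was not tested.

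Leaving out each library gave 0 to 1 genes called with OSCA-32, 2 to 3 with OSCA-40 and 1 to 2 between the lines. The ranges were 1.16 to 1.58 for Tmsb4x with OSCA-32, 1.48 to 1.77 for Ppbp with OSCA-40 (passing in 3 of 6 fits), and 1.67 to 1.91 for Pf4 (5 of 8) and 1.15 to 1.57 for Tmsb4x (8 of 8) between the lines. Without either OSCA-32 library Ppbp was below the minimum and gave no value. Itga2b ranged from -0.49 to 0.19 with OSCA-32 (0.19 without PBS replicate 1, 0.17 without OSCA-32 replicate 2) and from -0.30 to 0.38 in PBS against week 0 (-0.05 without week 0 replicate 1, -0.30 without PBS replicate 1). A lone library left in a group is assumed to vary like the other groups.

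With the replicate number as a block, 1, 3, 2 and 0 of the members were called in the order of comparisons used above, as without it, and no member's call changed. Over all mouse genes the block gave 14 higher and 8 lower with OSCA-32, 195 and 135 with OSCA-40, 35 and 42 between the lines, and 2 and 1 in PBS against week 0. Other counts moved by over 1.5 times: without the variance trend they were 11 and 10, 92 and 96, 14 and 31, and 1 and 2 in that order, and without a filter 16 and 6, 211 and 762, 118 and 500, and 0 and 0. With only the groups compared, they were 8 and 7, 166 and 114, 44 and 30, and 1 and 0. A minimum of 20 gave 44 and 31 with OSCA-32. Leaving out 1 library moved these counts too: with OSCA-32 to 4 and 4 without PBS replicate 2, 8 and 3 without PBS replicate 1, 6 and 11 without OSCA-32 replicate 1 and 18 and 14 without OSCA-32 replicate 2, and to 15 and 9 or 16 and 9 without a week 0 library. With OSCA-40 they became 103 and 58 without PBS replicate 1 and 124 and 65 without PBS replicate 2, and 176 and 114 or 176 and 118 without a week 0 library. Between the lines they were 22 and 13 without OSCA-32 replicate 2, 36 and 24 without OSCA-32 replicate 1, 36 and 97 and 35 and 106 without OSCA-40 replicate 1 and 2, and 25 to 32 higher and 28 to 34 lower without a PBS or week 0 library. In PBS against week 0 they were 0 to 4 and 0 to 3. The background shares set beside the members therefore rest on all 8 libraries. Because the deposited values carry no depth, whole steps of 1 limit what can be seen among the 6 low genes.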
